A study of Yarrowia lipolytica with 6 samples.

Results

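ALK1, ALK2 and ALK9 are 3 genes of the ALK family of the oil yeast Yarrowia lipolytica, chosen by name, out of 9235 counted features. They were read from the count rows rna-XM_504406.1 (ALK1), rna-XM_504857.1 (ALK2) and rna-XM_500560.1 (ALK9), and from the rows with these names in the authors' deposited comparison table. In that table ALK1 is YALI0_E25982g on chromosome E, ALK2 is YALI0_F01320g on chromosome F and ALK9 is YALI0_B06248g on chromosome B, so none of the 3 lies beside another.

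The ALK genes encode cytochrome P450 enzymes of the CYP52 type, which sit in the endoplasmic reticulum membrane and receive electrons from an NADPH-cytochrome P450 reductase. They put a hydroxyl group on the end carbon of an n-alkane or of a fatty acid, and the alcohol made from an alkane is then oxidised to a fatty acid and broken down in peroxisomes. Alk1, Alk2 and Alk9 act mainly on n-alkanes, and ALK1 is the member best known for growth on shorter alkanes such as decane. In this yeast the genes respond to alkanes through the transcription factors Yas1 and Yas2, which activate them, and Yas3, which represses them.

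Wild type, labelled CXAU/AI, was compared with a ∆Snf1 mutant, for which the labels name a homologous recombination method. SNF1 encodes the yeast AMP-activated kinase, which lets yeasts switch from glucose to other carbon sources. Each strain has 3 libraries, labelled biological replicates. The labels do not say whether the mutant cultures came from 1 clone or from several. Both strains had been grown for 24 h at 30 °C in uracil-containing SG medium and then held for 1 h with 2% n-decane, an alkane, and 1% uracil before total RNA was taken. A 48 h preculture and the use of 0.1% Triton are also given for all libraries of both strains. No library came from cells without decane, so a difference in the response to decane and a difference already there before it cannot be told apart. In bulk cultures, fewer cells that express a gene and less RNA per cell cannot be told apart either.

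Total counts were 32315239 to 38054417 per library. Levels are CPM (counts scaled to a common library total with TMM factors), as mean ± SD with n = 3 libraries per strain. SNF1 (Snf1, YALI0_D02101g), the deleted gene, had 2546 to 3644 counts in the wild type libraries and 0 in each deletion library. Its count row was found through its deposited fold change, so this check is partly built in.

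ALK1, ALK2 and ALK9 were all lower in the deletion, ALK9 by a larger factor than the other two. ALK9 fell 173-fold (95% interval 79.3 to 379), ALK1 fell 22.6-fold (10.6 to 48.3) and ALK2 fell 9.89-fold (4.74 to 20.6). Together they went from 6275 ± 1709 CPM in wild type to 337 ± 122 CPM in the deletion, which is 5.37% of the wild type level. As a share of all counts they went from 0.546 ± 0.102% to 0.0385 ± 0.0146%. The sums did not overlap, with 4640 to 8050 CPM in wild type and 236 to 473 CPM in the deletion (exact two-sided permutation test on log2 sums, p = 0.1, the smallest that 3 against 3 libraries can give).

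**Figure D1:**
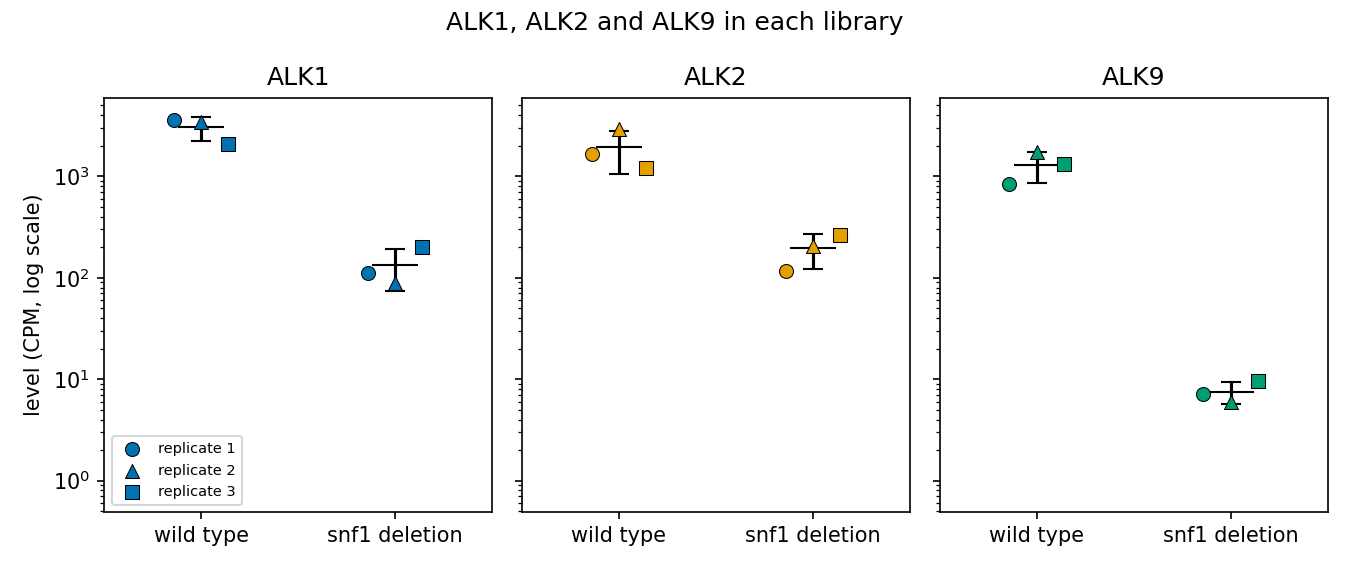
Level of ALK1, ALK2 and ALK9 in each library, in CPM on a log scale, for wild type and the snf1 deletion. Symbols are the 3 replicates, horizontal lines the means and bars the SD. For each gene all deletion libraries lie below all wild type libraries, and ALK9 drops to 7.50 CPM on average while ALK1 and ALK2 stay above 89 CPM in every library.

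ALK1, the member with the highest mean in wild type, stood there at 3620, 3400 and 2106 CPM in replicates 1, 2 and 3. In the deletion it stood at 112, 89.4 and 202 CPM. The groups did not overlap, and deletion replicate 3 was the highest of its group. The means were 3042 ± 818 CPM and 134 ± 59.6 CPM, which is -4.50 ± 0.51 (SE) on the log2 scale (adjusted p = 2.22e-05). Adjusted p-values of such changes come from edgeR's quasi-likelihood test and are adjusted over all 7244 features tested.

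ALK2 stood at 1675, 2915 and 1204 CPM in the wild type replicates and at 117, 207 and 261 CPM in the deletion replicates. Wild type replicate 2 was well above the other two, and the groups did not overlap. The nearest pair of libraries across the groups differed 4.61-fold. Its means were 1931 ± 884 CPM and 195 ± 72.7 CPM, which is -3.31 ± 0.49 (SE) on the log2 scale (edgeR, adjusted p = 0.000226).

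ALK9 stood at 840, 1735 and 1330 CPM in the wild type replicates. In the deletion it stood at 7.09, 5.92 and 9.51 CPM, from 279, 247 and 351 counts, so it was still detected in each library. Wild type replicate 1 was its lowest wild type library, where ALK1 had its highest value. Its means were 1302 ± 448 CPM and 7.50 ± 1.83 CPM, which is -7.44 ± 0.52 (SE) on the log2 scale (edgeR, adjusted p = 9.75e-07). Even the nearest pair of libraries across the groups differed 88.4-fold.

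Of all 7244 features tested, 18.7% were called lower in the deletion and 37.1% in either direction, and for 24.5% every deletion library lay below every wild type library, as it did for each of these 3 genes. With library size only, 32.5% of all calls were lower, against 50.5% with TMM scaling, and the median over the features tested was 0.40 in place of 0.04 on the log2 scale. Against that background, ALK9 had the 16th lowest log2 fold change of the 7244, ALK1 the 106th and ALK2 the 210th. The authors' deposited table lists log2 fold changes of -7.24 for ALK9 (adjusted p = 2.18e-85 there), -4.33 for ALK1 (1.26e-28) and -3.16 for ALK2 (2.03e-13). It rests on the same libraries and is no independent evidence.

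**Figure D2:**
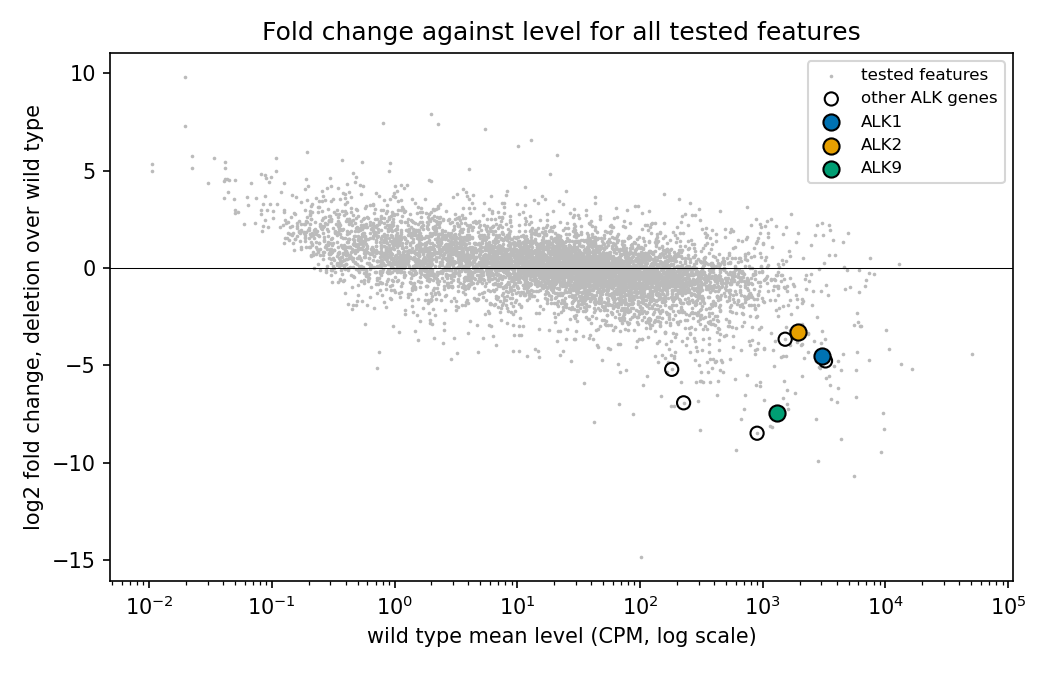
Log2 fold change (deletion over wild type) against the wild type mean in CPM, on a log scale, for the features tested. ALK1, ALK2 and ALK9 are coloured and the 5 other ALK genes with a count row are open circles. All 8 lie below zero, with ALK9 at -7.44, ALK1 at -4.50 and ALK2 at -3.31.

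The residual level, the part of the wild type level left in the deletion, was 0.577% for ALK9 (95% interval 0.264 to 1.26%), 4.42% for ALK1 (2.07 to 9.43%) and 10.1% for ALK2 (4.85 to 21.1%). Taken library by library against the wild type mean, it was 0.455 to 0.730% for ALK9, 2.94 to 6.64% for ALK1 and 6.08 to 13.5% for ALK2. The ranges of ALK9 and of the other two did not overlap, while those of ALK1 and ALK2 did. For all 3 genes deletion replicate 3 kept the most.

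Levels of different genes were set side by side per kilobase of gene model, and the models are of like length (1572 bases for ALK1 and ALK2, 1638 for ALK9). In wild type the order was ALK1, ALK2, ALK9, at 1935 ± 520, 1229 ± 562 and 795 ± 274 CPM per kilobase. ALK1 was above ALK2 in all 3 wild type libraries. ALK2 and ALK9 did not differ beyond their spread, and in wild type replicate 3 ALK9 was the higher of the pair (812 against 766 CPM per kilobase). In the deletion the order was ALK2, ALK1, ALK9, at 124 ± 46.2, 85.5 ± 37.9 and 4.58 ± 1.12 CPM per kilobase. ALK2 and ALK1 did not differ there beyond their spread, though ALK2 was the higher in all 3 libraries, and ALK9 was far below both.

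Among 5204 coding transcripts with a length, ranked by mean CPM per kilobase, ALK1 was number 87, ALK2 number 148 and ALK9 number 239 in wild type. In the deletion ALK2 was number 884 and ALK1 number 1186, so 83.0% and 77.2% of these transcripts still had a lower level. ALK9 was number 4454 there, with 14.4% below it. 

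The ratio of 2 genes within a library does not depend on how the library is scaled, so unequal falls were tested on such ratios, for all 3 pairs. ALK9 had 0.232, 0.510 and 0.631 counts per count of ALK1 in the wild type replicates, and 0.0634, 0.0663 and 0.0471 in the deletion replicates. The groups did not overlap. The ratio fell by 2.85 on the log2 scale (SE 0.65, 95% interval -4.14 to -1.57), a further 7.22-fold beyond the fall of ALK1 (adjusted p = 1.48e-05 in limma, exact permutation p = 0.1).

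ALK9 had 0.502, 0.595 and 1.10 counts per count of ALK2 in the wild type replicates, and 0.0603, 0.0286 and 0.0364 in the deletion replicates. Again no libraries overlapped. For how many of all features a ratio to ALK1 or ALK2 separates the strains in this way was not counted. The ratio fell by 4.12 on the log2 scale (SE 0.72, 95% interval -5.53 to -2.71), or 17.4-fold (adjusted p = 4.00e-08 in limma, exact permutation p = 0.1).

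ALK2 had 0.463, 0.857 and 0.572 counts per count of ALK1 in the wild type replicates, and 1.05, 2.32 and 1.29 in the deletion replicates. ALK1 thus had more counts than ALK2 in each wild type library and ALK2 more than ALK1 in each deletion library. The log2 ratio was 1.27 higher in the deletion (SE 0.65, 95% interval -0.02 to 2.55) and missed the threshold (adjusted p = 0.0546 in limma, exact permutation p = 0.1). The interval runs from no difference to 5.85-fold, so unequal falls of ALK1 and ALK2 were neither shown nor limited to small ones. The difference passed in limma without wild type replicate 2 (1.51, adjusted p = 0.0438) and without deletion replicate 3 (1.36, adjusted p = 0.0463). It missed the limma threshold without wild type replicate 1 (1.07, adjusted p = 0.166) or 3 (1.22, adjusted p = 0.0961). Nor did it pass in limma without deletion replicate 1 (1.51, adjusted p = 0.0556) or 2 (0.94, adjusted p = 0.197).

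The limma p-values and intervals come from fits of all features against 1 shared denominator, whose spread enters every feature. The p-values are therefore too small and the intervals too narrow, and they stand beside the permutation p. In these fits 97.5% of all features differed from ALK1 and 92.9% from ALK2, so a call against them is common. From the edgeR estimates with combined standard errors, the log2 difference was -2.94 (95% interval -4.51 to -1.36) for ALK9 against ALK1. It was -4.13 (-5.68 to -2.58) for ALK9 against ALK2 and 1.20 (-0.33 to 2.72) for ALK2 against ALK1. The combined standard errors treat the genes of a pair as independent, though both were measured in the same libraries.

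**Figure D3:**
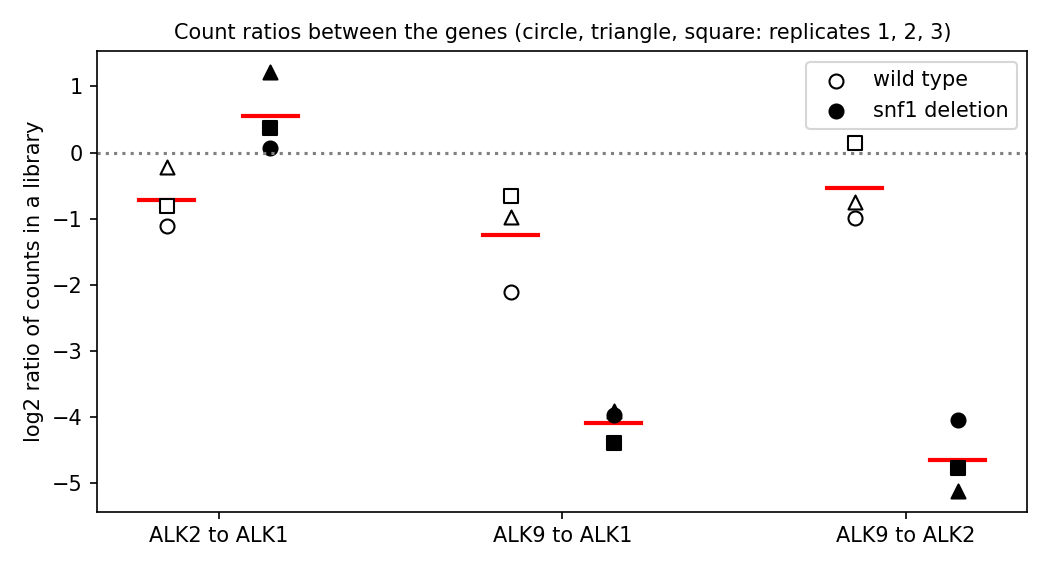
Log2 ratio of counts between 2 genes within each library, for the 3 pairs, with open symbols for wild type, filled symbols for the snf1 deletion and red lines for the means. The ratio of ALK2 to ALK1 lies below 0 in every wild type library and above 0 in every deletion library, and both ratios of ALK9 lie at -3.91 or lower in the deletion.

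The same data as shares of the summed counts of the 3 genes show which of them made up the pool. ALK1 held 48.9 ± 8.91% in wild type and 39.8 ± 9.21% in the deletion, and its ranges overlapped (42.2 to 59.0% and 29.5 to 47.3%, exact permutation p = 0.5). ALK2 held 29.8 ± 5.57% and then 57.8 ± 9.65%, with 26.0 to 36.2% in wild type and 49.7 to 68.5% in the deletion (exact permutation p = 0.1). ALK9 held 21.3 ± 7.49% and then 2.32 ± 0.587%, with 13.7 to 28.7% in wild type and 1.96 to 3.00% in the deletion (exact permutation p = 0.1). Counts per gene model length gave like shares, with ALK2 at 30.1% and 57.9% and ALK9 at 20.6% and 2.23%. The 95% Wilson interval of a single library's share reached at most 1.02 percentage points to either side, for counting error only, which is far below the spread between libraries.

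**Figure D4:**
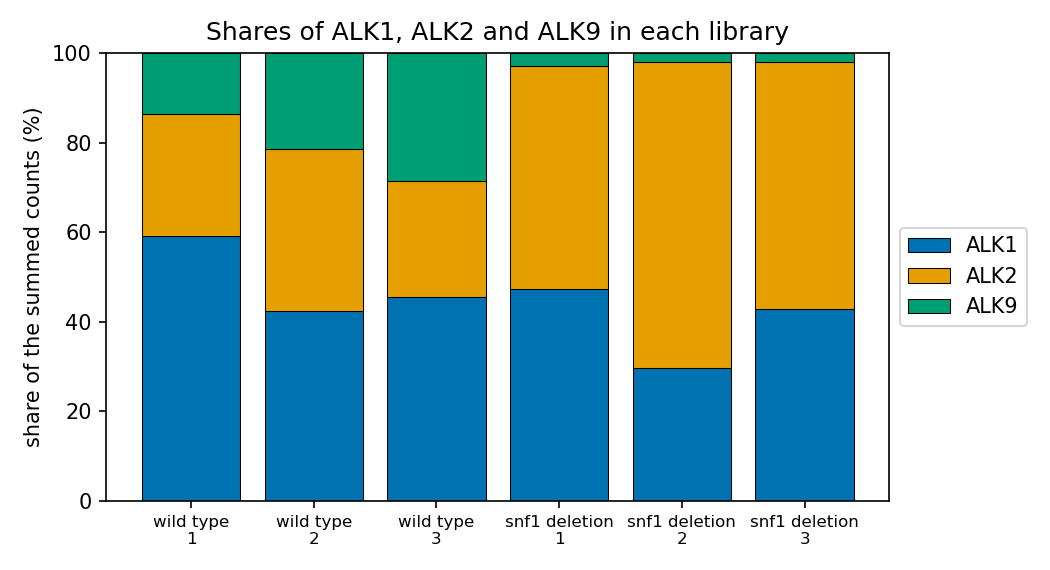
Share of ALK1, ALK2 and ALK9 in their summed counts, in percent, for each of the 6 libraries. ALK9 makes up 13.7 to 28.7% of the bar in wild type and at most 3.00% in the deletion, where ALK2 is the largest part in each library.

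The 3 genes did not rank the wild type libraries in the same order. ALK1 was highest in replicate 1, and ALK2 and ALK9 were highest in replicate 2. ALK1 and ALK2 were both lowest in replicate 3, and ALK9 was lowest in replicate 1. Their coefficients of variation in wild type were 26.9% for ALK1, 45.7% for ALK2 and 34.4% for ALK9. Across the 172 coding transcripts with at least 1000 CPM in wild type the median was 33.0%, with quartiles of 24.6% and 44.0%, so ALK2 was more variable than most of them. In the deletion the coefficients were 44.3% for ALK1, 37.2% for ALK2 and 24.4% for ALK9. Across the 4821 coding transcripts with at least 5 CPM there the median was 22.1%, with quartiles of 13.4% and 33.3%, so ALK1 and ALK2 lay above the upper quartile and ALK9 between the median and the upper quartile.

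Their place in the ALK family was read from the 12 family members ALK1 to ALK12. In the authors' deposited table, which holds only genes past the authors' test, 9 of the 12 names are listed and all 9 are lower, while ALK8, ALK10 and ALK12 are not listed by name or tag. Of all 2840 genes in that table, 1459 are lower and 1381 higher. Besides the 3 genes, 5 could be tied to a count row (ALK3, ALK4, ALK5, ALK6 and ALK11), by a match that uses their deposited fold change, so their direction is not independent evidence. All 8 passed as lower in edgeR, with a median log2 fold change of -4.99, against 18.7% called lower and a median of 0.04 over all features.

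The residual level of the other 5 ran from below that of ALK9 to below that of ALK2, which was the highest of the 8. It was 0.280% for ALK5 (95% interval 0.111 to 0.706%), a P450 that acts mainly on fatty acids, and 0.825% for ALK11 (0.442 to 1.54%), and these intervals overlap that of ALK9. It was 2.71% for ALK3 and 3.66% for ALK6, enzymes that accept both kinds of substrate, with intervals of 1.44 to 5.10% and 1.69 to 7.95% that overlap that of ALK1. It was 7.93% for ALK4 (4.26 to 14.8%), between ALK1 and ALK2. The interval of ALK2 (4.85 to 21.1%) overlaps those of ALK1, ALK3, ALK4 and ALK6, so the intervals do not settle the order of these genes. ALK1, ALK2 and ALK9 together held 50.7 ± 6.0% of the counts of the 8 genes in wild type and 56.8 ± 6.82% in the deletion, a difference within the spread (exact permutation p = 0.4).

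**Figure D5:**
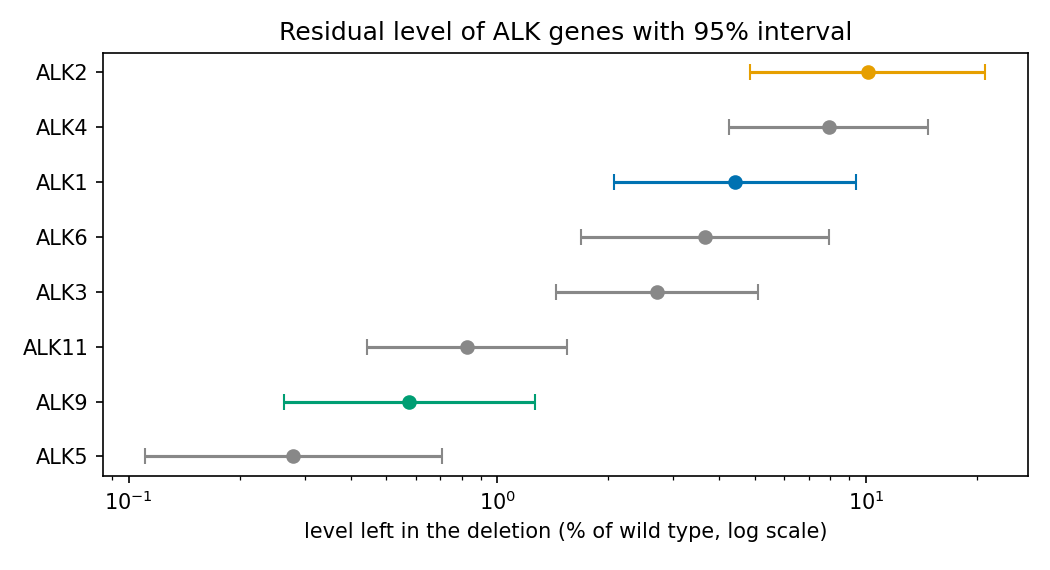
Level left in the snf1 deletion as percent of the wild type level, on a log scale, for the 8 ALK genes with a count row, with 95% intervals from the edgeR fit. Among these 8 genes ALK2 at 10.1% and ALK1 at 4.42% lie in the upper part, and ALK9 at 0.577% lies between ALK5 and ALK11. ALK7, ALK8, ALK10 and ALK12 were not tied to counts and are not shown, so the place of the 3 genes among all family members was not tested.

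The authors' deposited table gives ALK7 a log2 fold change of -1.17 (adjusted p = 0.0069 there) under the tag YALI0_E27533g. The tag YALI0_A15488g, which the family list used here gives for ALK7, has a row of its own there without a name, at 1.90 (adjusted p = 0.00643). Which of the rows is ALK7 was not settled, and neither was tied to counts here.

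YALI0_D04422g, listed here as the NADPH-cytochrome P450 reductase that serves these enzymes, stood at 1583, 1523 and 854 CPM in the wild type replicates and at 242, 229 and 257 CPM in the deletion replicates. It fell by 2.44 ± 0.40 (SE) on the log2 scale (edgeR, adjusted p = 0.000485), a residual level of 18.4% (95% interval 10.1 to 33.5%), and the groups did not overlap. As for SNF1, its count row was found through the deposited fold change. The regulators were read from the authors' deposited table. Yas1 is at -4.77 there, YALI0_E32417g, the tag listed here for Yas2, at -2.71, and Yas3 at -0.94. If these rows are the right genes, both activators and the repressor are listed as lower in the deletion. The row named Yas3 has no locus tag there, and the row of YALI0_E32417g has no name. None of these regulator rows was tied to counts here.

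The coding transcripts with the closest profile over the 6 libraries were sought for each gene. The measure was the root mean square difference of log2 CPM, each profile centred on its wild type mean. The search covered 4453 other transcripts with a mean of at least 10 CPM over all 6 libraries. High wild type levels alone could meet that limit. Closest to ALK1 was YALI1_C24850g (0.21), followed by YALI1_F28064g (0.27), YALI1_E19036g (0.28), YALI1_E21128g (0.32) and YALI1_D13071g (0.33), names from the RefSeq table of strain CLIB89(W29). YALI1_C24850g went from 7348 to 278 CPM on average, above ALK1 in both strains. Closest to ALK2 were YALI1_E08997g (0.31), YALI1_C05347g (0.33), YALI1_F29765g (0.34), YALI1_E20923g (0.35) and YALI1_D20329g (0.37). Closest to ALK9 were YALI1_E07099g (0.36), ALK11 (0.42), YALI1_E15398g (0.43), rna-XM_501314.2 (0.44) and YALI1_E01081g (0.45).

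None of the 3 genes was among the 5 closest to another of them. With profiles centred on wild type, this measure mostly repeats the differences in fold change given above and is no separate evidence. ALK1 and ALK2 lay 0.99 apart on this measure, ALK1 and ALK9 2.06 and ALK2 and ALK9 2.94. Seen from ALK1, ALK2 ranked 115 and ALK9 502 in closeness among the 4453. Seen from ALK2, ALK1 ranked 254 and ALK9 3678. Seen from ALK9, ALK1 ranked 90 and ALK2 170. ALK11, the only one of the 8 ALK genes with a count row that appears in these lists, stood at 227 ± 59.1 CPM in wild type and 1.87 ± 0.331 CPM in the deletion, -6.92 on the log2 scale.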

How the data were processed

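The authors deposited raw whole-number counts per transcript for 6 libraries. Tools in the submitters' processing notes are DESeq2 2.11.40.7, HISAT2 2.2.1, StringTie and Trimmomatic 0.38.0. Build, counting options and strand use are not given in the sources used, so reads shared between ALK paralogues, or with an antisense or overlapping transcript, could be placed wrongly. The authors' deposited table gives means (a signal in normalised counts), log2 fold changes (entered as a score because of a stray last line), standard errors and p-values. Its positions did not follow the locus tags, so none are printed.

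Counts were tested with edgeR 4.0.16 (R 4.3.3): TMM scaling, filterByExpr (minimum count 10, minimum total 15), the quasi-likelihood test and Benjamini-Hochberg adjustment at 0.05 over 7244 features. Standard errors are absolute log2 fold changes over the square root of F. Ratios (added count 0.5) were tested with limma 3.58.1. On simulated data the edgeR fit was checked for planted fold changes and for false calls. The ratios were checked only for the size of a planted difference, with ALK1 unchanged between the strains, unlike here. DESeq2 1.42.0 served as an alternative and for ties. Gene model lengths come from the RefSeq table of CLIB89(W29), another strain, which matched 5814 of 6447 coding transcripts.

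The members, gene lists and rules were chosen with earlier results of these data known. Text names the 3 genes, SNF1, ALK genes and regulators listed by the authors, the reductase, and the 5 closest profiles per gene. Other ALK rows were tied on the same chromosome by deposited mean, fold change and standard error, each scaled by 0.02 after removing the offset of the 3 genes (distance under 20, next at least 3 times as far). This rule was set after seeing the data and tied 10 of 14, among them the 3 genes themselves, whose ties were built in. Yas1, Yas3, ALK7 and the tag listed for Yas2 were not tied. P-values measure the spread between these cultures only. Libraries of a strain differed beyond sampling noise (chi-square at least 306 per feature). Whether replicate numbers pair the libraries was not settled. Correlations of same-numbered deviations were low (0.08, 0.17 and 0.17), yet 5 of 6 libraries correlated best with their own number. Intervals of shares cover counting error only.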

Additional observations from a re-analysis of the deposited data

How the results depend on the processing

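Of 366 log2 differences with a fitted test that were recomputed under alternative settings, 363 kept their direction and their side of the threshold. Most of the 366 are fold changes of closest profiles or of rows tied through their deposited fold change. That these stayed lower was largely built in. The 29 recomputed shares and sums kept their direction, and their exact test cannot pass in any setting. The number of features called ranged from 1824 to 2987. The 3 log2 differences that changed are all among the 10 recomputed for ALK2 against ALK1, of which 7 stayed the same. Its difference of 1.27 passed in limma with at least 1 CPM in 3 libraries (1.27, adjusted p = 0.0439). It also passed in 2 of 6 fits leaving out 1 library each, where it ranged from 0.94 to 1.51. Whether the numbering justifies a replicate block was not settled (5 of 6 libraries correlated best with their own number). With that block the adjusted p of ALK2 against ALK1 was 0.0962 in limma. In edgeR 2754 features were called with it, against 2685 without it. Over all settings the log2 fold change ranged from -7.68 to -7.05 for ALK9, from -4.92 to -4.13 for ALK1 and from -3.57 to -2.86 for ALK2, with the weakest adjusted p at 7.13e-05, 0.000325 and 0.0015. The combined edgeR standard errors were added after seeing the data. With 3 libraries per strain, no exact test could go below 0.1.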
